A study of Mus musculus with 6 samples.

Results

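The transcription factors of resting T cells examined here in regulatory T cells (Tregs) with and without DJ-1 were Tcf7, Lef1, Klf2, Foxo1, Foxo3, Foxp1, Bach2, Id3 and Satb1. They were taken as all probe sets of the array whose annotation gives 1 gene symbol, that symbol being one of the 9. All 9 genes were found, with 117 of the 269751 probe sets, among 23152 named genes, and all 9 lay above the filter on low values. The mice without DJ-1 (KO) were DJ-1-/- and the wild-type mice (WT) were DJ-1+/+ littermates. DJ-1 is the protein encoded by Park7. Each group held 3 untreated male mice aged 45 weeks, kept free of specific pathogens, and Tregs were sorted from the spleen as CD4+ cells with high CD25, with 1 Affymetrix Mouse Gene 2.0 ST array per mouse. The sources used here give neither how the DJ-1 allele was made nor the purity of the sorted cells.

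T cells that have not been activated stay small and out of the cell cycle, and this quiescence is held by an active transcription programme. FOXO factors enter the nucleus when PI3K and Akt signalling is low, and FOXO1 drives Klf2 and genes for recirculation through lymphoid organs. TCF-1 (Tcf7) and LEF-1 are HMG-box factors of naive and stem-like T cells, and BACH2 is a repressor that holds back effector genes, among them Prdm1. In Tregs, high levels of these factors are known from resting or central cells, and effector Tregs carry less Tcf7, Lef1, Bach2 and Klf2 and more of BLIMP-1 (Prdm1), BATF and IRF4.

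The labels were checked first. Park7 was at 6.06, 5.96 and 5.71 in KO, against 9.48, 9.27 and 9.70 in WT, on the scale used throughout, log2(intensity + 16), where 1 unit is a doubling and differences of dim probe sets are understated. It averaged 5.91 ± 0.18 in KO and 9.48 ± 0.21 in WT (SD, n = 3 each), a difference of -3.57 (limma adjusted p = 2.06e-05). Foxp3, the lineage factor of Tregs, averaged 12.72 ± 0.03 in KO and 12.66 ± 0.02 in WT. Il2ra, which encodes the sorted marker CD25, averaged 12.55 ± 0.12 in KO and 12.55 ± 0.05 in WT. The median intensity per array ranged from 88.6 to 99.9 in KO and from 95.3 to 100.2 in WT, and KO replicate 1 stood apart from the other 5 arrays. It lay alone at one end of the first principal component (45.6% of the variance over the tested genes) and had the lowest mean correlation with the others, 0.958 against 0.974 to 0.976. Without it, 37 genes passed the test below in place of 38, the 9 factors had a median difference of 0.22 in place of 0.32, and 6 of the 9 were without overlap between the groups in place of 3. Fewer arrays separate more easily, and the share of all genes without overlap was not counted for that fit. Each array holds RNA of its own mouse, and 3 mice a group set the precision.

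The factors as a group lay higher in KO, but none passed the test. In limma's test over 13891 genes, adjusted by the Benjamini-Hochberg method, 0 of the 9 passed an adjusted p of 0.05, where 38 genes did (0.274% of those tested), 1 of them higher in KO (0.0072%) and 37 lower. With quantile normalization the split was 7 higher and 48 lower. The lowest adjusted p of a member was 0.419, for Bach2. The difference, KO minus WT, was positive for 8 of the 9, against 40.3% of all tested genes, and its median was 0.32, against -0.05 over all tested genes. At an unadjusted limma p of 0.05, 4 of the 9 differed, Bach2, Foxo3, Foxo1 and Satb1, all with positive differences, where 2.99% of all genes did so in that direction. Every KO array lay above every WT array for 3 of the 9, Lef1, Foxo1 and Foxo3, against 6.10% of all tested genes. For those 3 genes a two-sided exact permutation test gave p = 0.10, the smallest that 3 arrays a group allow, and for the other 6 it gave 0.20 to 0.50. Which genes were without overlap depended on the processing. With median centring they were Foxo1, Foxo3 and Satb1, and with quantile normalization Bach2 and Satb1 joined the first 3. The share of all genes without overlap was not counted under those settings. In bulk RNA, fewer or more cells of a type and a change of RNA per cell cannot be told apart.

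**Figure D1:**
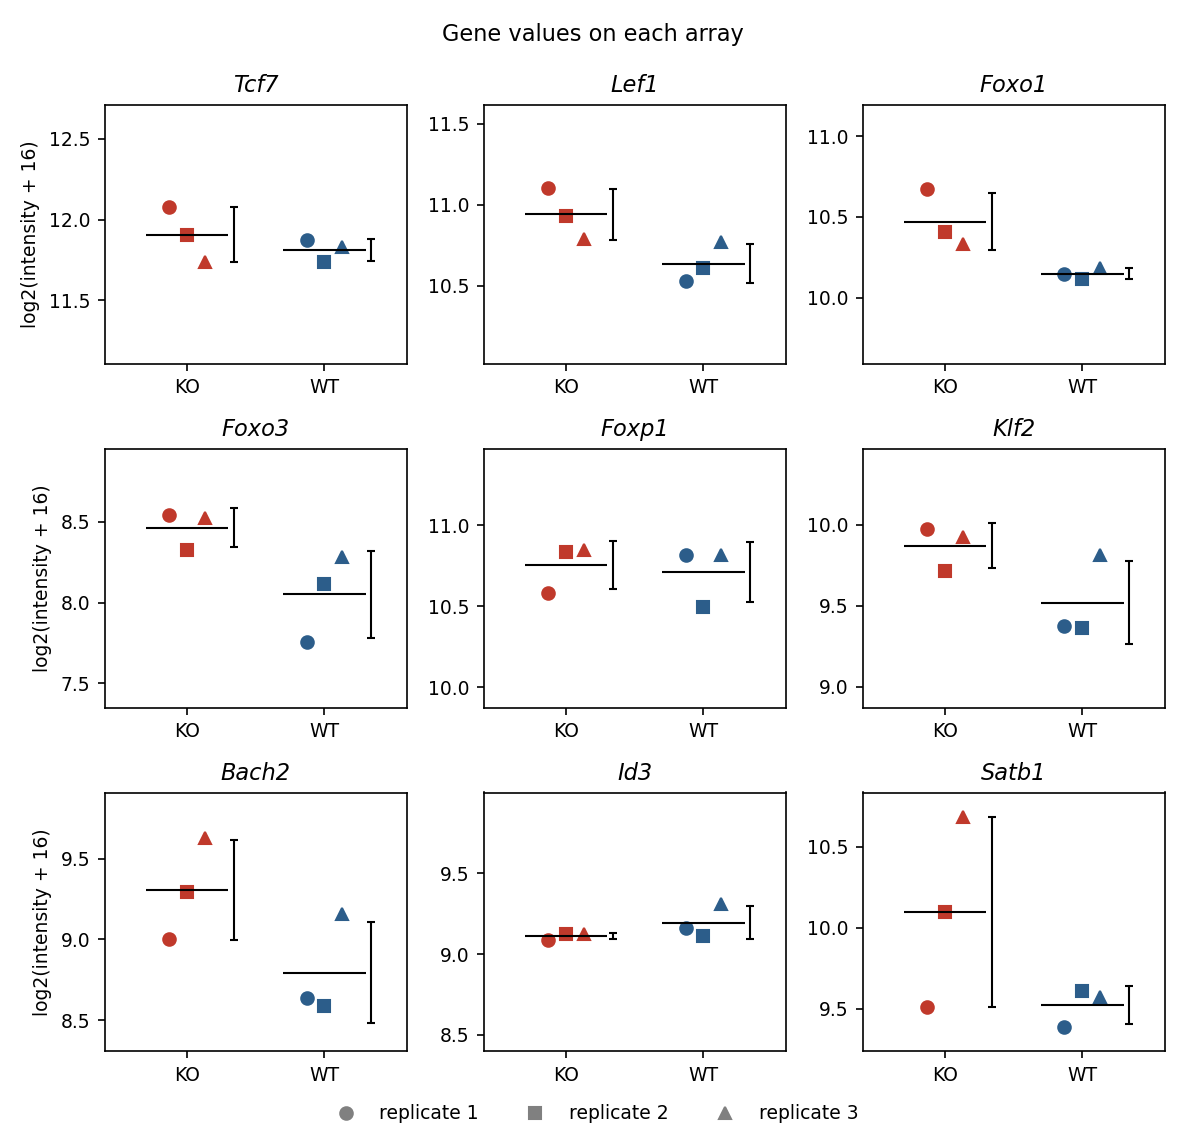
Gene values, log2(intensity + 16), of the 9 factors on each of the 3 KO and 3 WT arrays. Horizontal lines are group means, vertical bars are 1 SD to either side, each panel spans the same height, and marker shapes give the replicate number. All KO points lie above all WT points for Lef1, Foxo1 and Foxo3, and the points of the groups overlap for the other 6 genes.

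**Figure D2:**
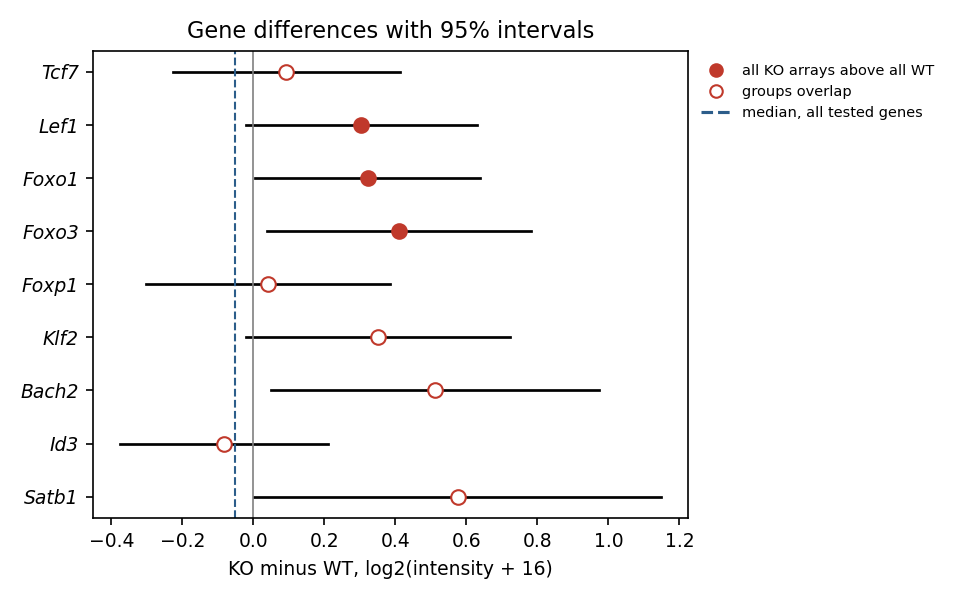
Difference KO minus WT, in log2(intensity + 16), of each factor with the 95% interval from limma. The dashed line marks the median of all 13891 tested genes, -0.05. The intervals of Foxo1, Foxo3, Bach2 and Satb1 lie above 0 before adjustment, and those of the other 5 hold 0.

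Tcf7 and Lef1, the HMG-box pair, had gene differences of 0.09 and 0.30, and neither passed. Tcf7, which encodes TCF-1, was at 12.08, 11.90 and 11.74 in KO replicates 1 to 3, against 11.87, 11.74 and 11.83 in WT replicates 1 to 3. The groups overlapped, with a difference of 0.09 (SE 0.14, 95% interval -0.23 to 0.41, limma adjusted p = 0.845). Lef1 was at 11.10, 10.93 and 10.79 in KO, against 10.53, 10.61 and 10.77 in WT. Its lowest KO value lay just above its highest WT value, and the difference was 0.30 (SE 0.15, interval -0.02 to 0.63, limma adjusted p = 0.508).

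All 14 Lef1 probe sets had positive differences, from 0.05 to 0.56, and 9 of the 14 Tcf7 probe sets did, from -0.11 to 0.52. The Lef1 probe set with the smallest p, 17402676, had 11.59, 11.35 and 11.22 in KO and 10.85, 10.85 and 10.77 in WT, a difference of 0.56 (limma adjusted p over all probe sets 0.549). The brightest Lef1 probe set, 17402668, differed by 0.19 and the brightest of Tcf7, 17262606, by 0.15. The Tcf7 probe sets with the smallest p, 17262608 and 17262613, differed by 0.30 and 0.52, the second of them with 1 low value of 10.70 in WT replicate 3.

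Foxo1 and Foxo3, the forkhead factors that PI3K and Akt signalling keeps out of the nucleus, had every KO array above every WT array, without passing the test. Foxo1 was at 10.67, 10.40 and 10.34 in KO, against 10.15, 10.11 and 10.18 in WT. The WT arrays lay close together (SD 0.03), and the difference was 0.32 (SE 0.14, interval 0.0048 to 0.64, limma adjusted p = 0.459). Foxo3 was at 8.54, 8.32 and 8.52 in KO, against 7.76, 8.12 and 8.28 in WT. The difference was 0.41 (SE 0.17, interval 0.04 to 0.78, limma adjusted p = 0.424), and WT replicate 3 lay closest to the KO arrays. Without WT replicate 1 the Foxo3 difference was 0.26.

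The size of the Foxo1 difference rested on a minority of its probe sets. Of its 6 probe sets, 17397498 and 17397499 differed by 0.35 and 0.29 with no overlap of the groups, while the other 4 differed by 0.0026 to 0.06. The brightest, 17397500, had 12.62, 12.67 and 12.68 in KO and 12.56, 12.57 and 12.67 in WT. With the mean of the probe sets in place of their median Foxo1 differed by 0.13, and without KO replicate 1 by 0.22. All 8 Foxo3 probe sets had positive differences, from 0.16 to 0.61. The Foxo3 probe sets with the smallest p, 17240535 and 17240531, differed by 0.61 and 0.30, both without overlap, and the brightest, 17240532, by 0.31.

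Foxp1, a forkhead factor that keeps naive T cells quiescent and competes with FOXO1 at shared sites, had nearly equal group means by its gene value. It was at 10.58, 10.83 and 10.85 in KO, against 10.82, 10.50 and 10.82 in WT, a difference of 0.04 (SE 0.15, interval -0.30 to 0.39, limma adjusted p = 0.942). Its sign turned without KO replicate 3 (-0.0045) or without WT replicate 2 (-0.065). The 25 Foxp1 probe sets were unlike each other. The 13 brighter ones had a median difference of 0.05, with 8 positive and 1 without overlap. Of the 12 dimmer ones 11 were positive, with a median difference of 0.59 and 6 without overlap. Over all 139073 probe sets of the array in the same range of levels, 6.32 to 10.69, 46.2% had positive differences and the median was -0.03. Of all 25 Foxp1 probe sets 7 were without overlap (28%, against 6.17% of all probe sets with KO above WT).

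Named by their p, probe set 17469437 of Foxp1 had 9.33, 8.69 and 9.78 in KO and 7.89, 8.17 and 8.12 in WT, a difference of 1.21 (SE 0.29, limma adjusted p = 0.528). Every KO array lay above every WT array there. The next, 17469441, differed by 0.61, and the brightest Foxp1 probe set, 17469425, by 0.24. With the mean of the probe sets Foxp1 differed by 0.30 (limma adjusted p = 0.293), and with each probe set centred on its own mean before the median, an alternative added after the data were seen, by 0.22. The split by brightness was also made after these values were seen, carries no test, and the sources used here do not place these probe sets on exons.

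**Figure D3:**
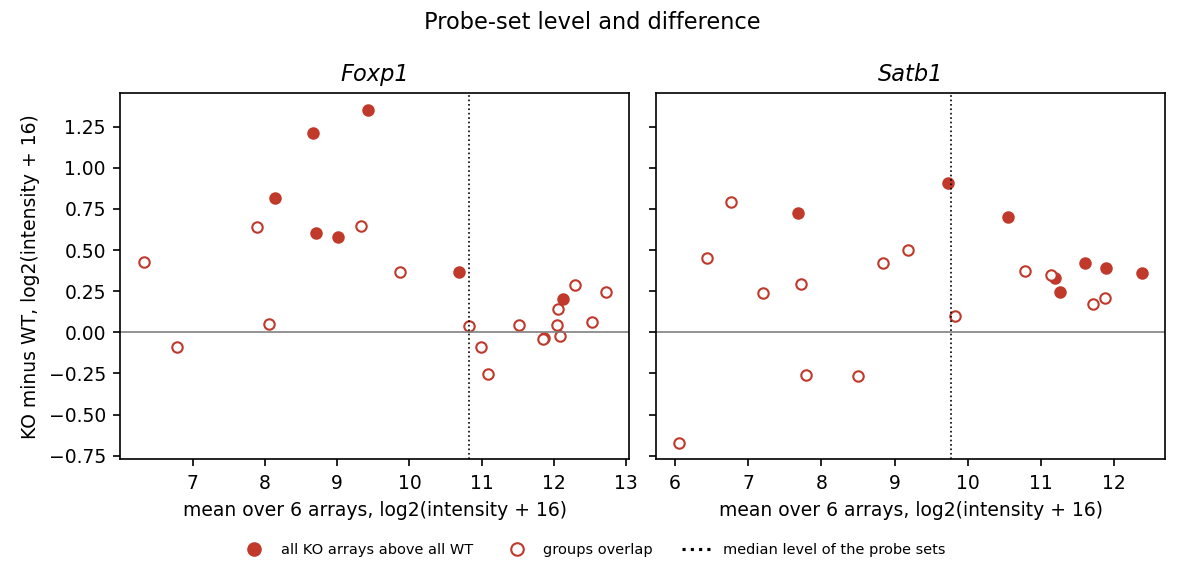
Mean level of each probe set over the 6 arrays (horizontal, log2(intensity + 16)) against its difference KO minus WT (vertical, same scale) for Foxp1 and Satb1. Filled points have every KO array above every WT array, and the dotted line is the median level of the gene's probe sets. The dimmer Foxp1 probe sets reach a difference of 1.35 and the brighter ones lie between -0.25 and 0.29, while all 11 brighter Satb1 probe sets are above 0.

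Klf2, the factor downstream of FOXO1 that drives S1pr1 and so the exit of T cells from lymphoid organs, was at 9.98, 9.71 and 9.92 in KO, against 9.38, 9.36 and 9.82 in WT. WT replicate 3 lay among the KO arrays and the other WT arrays lay below all of them. The difference was 0.35 (SE 0.17, interval -0.02 to 0.72, limma adjusted p = 0.501), and 0.50 without WT replicate 3. All 4 Klf2 probe sets had positive differences, from 0.14 to 0.60. The brightest, 17502443, which also had the smallest p, was at 12.05, 11.52 and 11.63 in KO and 11.01, 10.96 and 11.44 in WT, without overlap. Probe set 17502441 of Klf2 followed by p, with a difference of 0.59.

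The 250 bases upstream of the annotated start are shown for Lef1, Foxo1 and Foxo3, the genes without overlap under the main setting. They are also shown for Klf2, the gene that FOXO1 is known to drive. The sequences are RefSeq's on GRCm38.p6, at chr3:131110047-131110296 (plus strand, the first of 4 annotated Lef1 starts), chr3:52268087-52268336 (plus), chr10:42276696-42276945 (minus) and chr8:72318812-72319061 (plus), and capitals mark the letters CCACCC or GGGTGG, a core that KLF factors bind.
Lef1: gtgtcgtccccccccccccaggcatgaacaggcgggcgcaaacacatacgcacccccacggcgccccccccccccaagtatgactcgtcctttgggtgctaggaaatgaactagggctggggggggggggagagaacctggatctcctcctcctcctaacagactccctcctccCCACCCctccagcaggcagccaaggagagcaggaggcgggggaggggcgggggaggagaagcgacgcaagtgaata
Foxo1: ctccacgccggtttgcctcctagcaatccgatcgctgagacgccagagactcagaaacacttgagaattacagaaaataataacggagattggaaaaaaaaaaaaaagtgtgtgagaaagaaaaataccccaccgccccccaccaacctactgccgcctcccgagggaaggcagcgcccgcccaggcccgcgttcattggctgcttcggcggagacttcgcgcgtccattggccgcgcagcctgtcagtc
Foxo3: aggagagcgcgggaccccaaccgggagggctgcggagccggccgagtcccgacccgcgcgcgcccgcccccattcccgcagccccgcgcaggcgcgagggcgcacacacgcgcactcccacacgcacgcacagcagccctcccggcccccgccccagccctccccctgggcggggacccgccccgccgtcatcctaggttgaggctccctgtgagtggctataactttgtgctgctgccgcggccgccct
Klf2: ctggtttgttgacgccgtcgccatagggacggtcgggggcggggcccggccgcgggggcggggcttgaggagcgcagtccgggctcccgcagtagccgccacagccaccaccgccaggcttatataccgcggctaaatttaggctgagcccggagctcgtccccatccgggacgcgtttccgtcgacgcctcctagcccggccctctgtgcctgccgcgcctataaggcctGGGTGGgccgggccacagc
The letters of 5 motifs were searched on both strands of the 250-base windows at all 19 annotated starts of the 9 genes, and no motif is contained in another. The KLF letters CCACCC were in 11 of the 19 windows, against 28.1% of all 32851 windows of the same length, and in the windows shown they stand in those of Lef1 and Klf2. The FOXO letters GTAAACA were in 0 of the 19 (3.17% of all), the BACH and AP-1 letters TGACTCA in 0 (4.46%), the TCF and LEF letters CTTTGAA in 1, a Foxp1 window (4.46%), and the E protein letters CACCTG in 2 (17.2%). Several starts belong to 1 gene and share bases, so the windows are not independent, and a match is a description of letters. The G and C content of the 19 windows ran from 44.8% to 80.8%, and the shares over all windows were not matched for it.

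Bach2, the repressor that restrains effector differentiation, was at 9.01, 9.29 and 9.62 in KO, against 8.64, 8.59 and 9.16 in WT. WT replicate 3 lay between the lowest and the middle KO value, so the groups overlapped. The difference was 0.51 (SE 0.21, interval 0.05 to 0.97, limma adjusted p = 0.419), a fold of 1.43 on this scale. Leaving out 1 array gave Bach2 differences from 0.35 (without KO replicate 3) to 0.69 (without WT replicate 3), and the mean of the probe sets gave 0.30. Of 17 Bach2 probe sets 14 were positive, and 4 had every KO array above every WT array (23.5%, against 6.17% of all probe sets). Probe set 17412382 had the smallest p of all 117, with 9.01, 8.84 and 9.27 in KO and 8.08, 8.22 and 8.39 in WT, a difference of 0.81 (SE 0.17, limma adjusted p = 0.510). Probe set 17412383 of Bach2 differed by 0.78 and the brightest, 17412384, by 0.30. All 9 brighter Bach2 probe sets were positive, with a median of 0.37, and 5 of the 8 dimmer ones, with a median of 0.13.

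Satb1, a chromatin organiser that Foxp3 represses in Tregs, had the largest gene difference of the 9 and the widest spread. It was at 9.51, 10.10 and 10.68 in KO, against 9.39, 9.61 and 9.57 in WT. KO replicate 1 lay among the WT arrays and the other KO arrays above them, with a difference of 0.58 (SE 0.26, interval 0.0028 to 1.15, limma adjusted p = 0.465). Without KO replicate 1, which stood apart, the Satb1 difference was 0.87, and without KO replicate 3 it was 0.28. The gene value is the median of 22 probe sets, of which 9 had means under 9, 5 from 9 to 11 and 8 of 11 or more, so that the median lay in a thinly filled range. With each probe set centred on its own mean first, Satb1 differed by 0.37 (SE 0.11, limma adjusted p = 0.211), and with the mean of the probe sets by 0.31.

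Of the 22 Satb1 probe sets, 19 had positive differences. In 8 of them every KO array lay above every WT array (36.4%, against 6.17% of all probe sets). This was the largest number among the 9 genes, and by share Foxo1 was close (33.3%, 2 of 6). All 11 brighter ones were positive, with a median difference of 0.35. The brightest, 17345933, was at 12.62, 12.56 and 12.49 in KO and 12.04, 12.19 and 12.35 in WT. Probe set 17345934 of Satb1 had the smallest p, with 11.75, 11.77 and 11.92 in KO and 11.35, 11.44 and 11.40 in WT, a difference of 0.42 (SE 0.13, limma adjusted p = 0.580). Probe set 17345939 differed by 0.70.

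Id3, which blocks the DNA binding of E proteins and helps to maintain Tregs, was the 1 gene of the 9 with a negative difference. It was at 9.09, 9.12 and 9.12 in KO, against 9.16, 9.11 and 9.31 in WT, a difference of -0.08 (SE 0.13, interval -0.37 to 0.21, limma adjusted p = 0.853). The sign turned with the mean of the probe sets (0.16) and with centred probe sets (0.045), and 5 of the 7 Id3 probe sets had positive differences. The brightest, 17420019, differed by 0.12. Probe set 17420023 of Id3, which had the smallest p, was at 7.78, 7.29 and 7.88 in KO and 6.72, 6.73 and 7.41 in WT, a difference of 0.70. Probe set 17420018 differed by 0.20.

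Over the 117 probe sets of all 9 genes, 98 had positive differences (83.8%, against 47.0% of all 269751 probe sets) and the median difference was 0.25. None passed limma's test over all probe sets (lowest adjusted p 0.510), where 3 did, 0.00111% of those tested. At an unadjusted limma p of 0.05, 17 were higher in KO (14.5%, against 3.23% of all) and 0 were lower (against 4.37% of all). Every KO array lay above every WT array in 30 (25.6%, against 6.17% of all) and below in 0 (against 7.64%). Probe sets of 1 gene share its transcript and are not replicates of the condition.

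**Figure D4:**
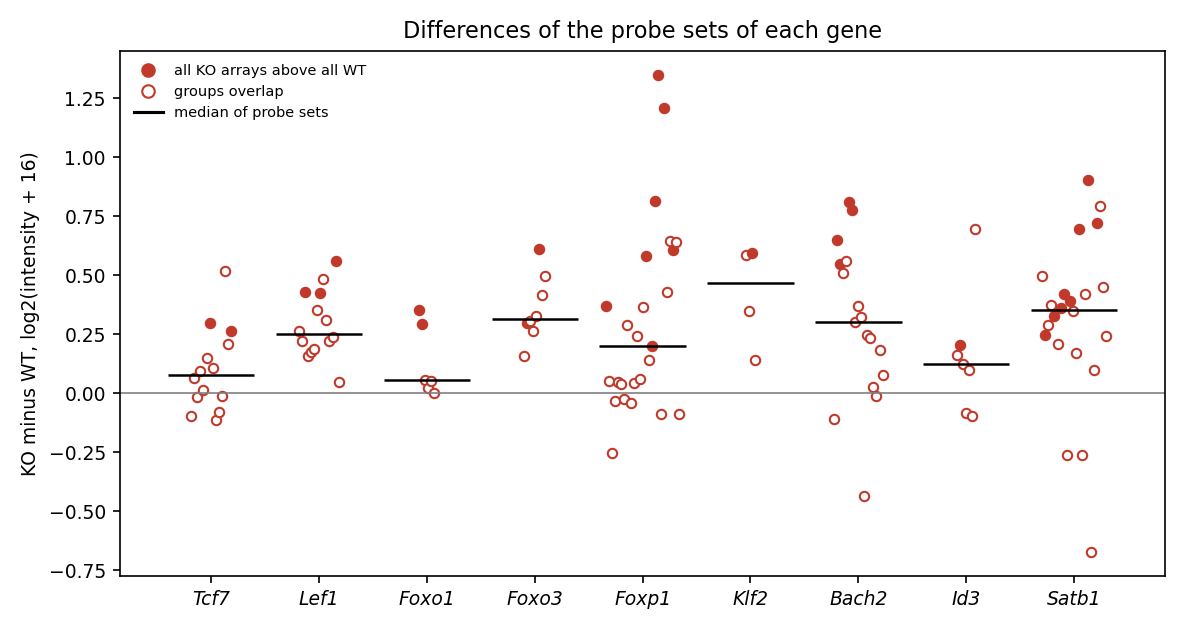
Difference KO minus WT, log2(intensity + 16), of each of the 117 probe sets by gene, in the order of their numbers on the array. Filled points have every KO array above every WT array, open points overlap, and black lines are medians over the probe sets. Lef1, Foxo1, Foxo3 and Klf2 have no probe set below 0, and Foxp1 and Satb1 have the widest ranges.

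The 9 genes did not share 1 pattern over the 6 arrays. Lef1 and Foxo1 were the most alike (Pearson r = 0.94 over 6 arrays), then Klf2 and Foxo3 (0.90) and Bach2 and Satb1 (0.85). Foxo1 and Id3 were the least alike (-0.47). These correlations hold the difference between the groups and the brightness of each array, and are given as a description. WT replicate 3 had the highest WT value of 7 of the 9 genes. KO replicate 1 had the highest KO value of 5, among them Tcf7, Lef1 and Foxo1, and KO replicate 3 of the other 4, among them Bach2 and Satb1.

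The genes most like the mean profile of the 9 were the interleukin 17 receptor chain Il17ra (r = 0.99 over 6 arrays), the mitochondrial inner membrane protein Immt (0.98), Tagln3 (0.98), Klhl6 (0.98), known from B cell signalling, and the glycosyltransferase B3galnt2 (0.98). Il17ra was at 10.54, 10.47 and 10.68 in KO and 10.05, 10.06 and 10.33 in WT. The most opposite were Iglon5 (-0.99), Tmco6 (-0.99), the integrin chain Itgb5 (-0.99), Aplp1 (-0.98) and the endoplasmic reticulum chaperone Pdia3 (-0.98). None of these passed limma's test (lowest adjusted p 0.241, for Itgb5). The likeness was taken over 6 arrays that include the difference between the groups, out of 13891 genes. Immt, with a difference of 0.28, differed by -0.012 with the mean of the probe sets.

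Genes that FOXO factors and KLF2 are known to drive were evenly split. Of 23 tested, 0 passed in either direction, 11 had positive differences and the median was -0.01, close to the -0.05 of all genes. By p, the first 3 were Gabarapl1, an autophagy gene (-0.56, limma adjusted p = 0.303), Txnip, an arrestin that limits glucose uptake (0.32, 0.440), and the autophagy kinase Ulk1 (-0.30, 0.444). Ulk1 differed by -0.016 with the mean of the probe sets and by -0.084 with centred ones. Further genes of this list were named after their values were seen. Ccr7, the chemokine receptor for lymph nodes, differed by 0.02 (limma adjusted p = 0.960) and S1pr1, the exit receptor that KLF2 drives, by -0.03 (0.951). Il7r, the receptor of the survival cytokine interleukin 7, differed by -0.14 (0.743), with every KO array below every WT array (11.3% of all tested genes). The sign of Ccr7 turned without KO replicate 3 (-0.013) or WT replicate 2 (-0.0061). S1pr1 depended on how probe sets were joined, with 0.40 for their mean (limma adjusted p = 0.277) and 0.41 for centred probe sets.

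Other genes of naive T cells lay higher more often than not. Of 14 tested, 10 had positive differences, with a median of 0.20, and 0 passed in either direction. Every KO array lay above every WT array in 6 of them (6.10% of all tested genes) and below in 1 (11.3%). At an unadjusted limma p of 0.05, 5 were higher in KO (2.99% of all tested genes) and 1 was lower, Slamf6, a receptor of the SLAM family named after its value was seen (-0.33, with every KO array below every WT array). The vesicle protein Nsg2 was at 9.51, 9.48 and 9.43 in KO and 8.88, 8.97 and 8.95 in WT (0.54, limma adjusted p = 0.169). The kinase Txk differed by 0.59 and the actin cross-linker Actn1 by 0.45 (both 0.275), without overlap. Axin2, a feedback target of Wnt and TCF signalling named after its value was seen, was without overlap as well, with a difference of 0.41 (limma adjusted p = 0.386). Nkd1, also on the list, lay under the filter, with means of 5.13 in KO and 5.33 in WT and overlap of the groups.

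Other regulators of quiescence had mostly small positive differences. Of 22 tested, 18 were positive, with a median of 0.08, and 0 passed. Tsc22d3, the glucocorticoid-induced leucine zipper protein, was at 9.92, 9.33 and 9.55 in KO and 8.33, 8.55 and 8.86 in WT, a difference of 1.02 (limma adjusted p = 0.0878, and 0.0209 with array weights). With the mean of the probe sets Tsc22d3 differed by 0.32 (limma adjusted p = 0.293), with bright probe sets by 0.55 and with centred ones by 0.35. The repressor Zeb1 differed by 0.52 and Pik3ip1, an inhibitor of PI3K, by 0.40 (limma adjusted p = 0.460 and 0.475), with overlap in both. With the mean of the probe sets Zeb1 differed by 0.066, and with centred ones by 0.062.

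Relatives and partners of the 9 were mixed. Of 12 tested genes of the same families 6 were positive, with a median of -0.0020 and 0 past the threshold. Among the 12, 1 gene, Klf7, had every KO array above every WT array (6.10% of all tested genes) and 1, Id2, below (11.3%). Under the filter lay Foxp2 and Id1, with every KO array above every WT array, and Tcf7l2 and Id4, with overlap. The share without overlap was not counted for genes under the filter. Klf7 differed by 0.46 (limma adjusted p = 0.362) and Klf3 by 0.26 (0.628). Id2, the Id protein of effector cells, had every KO array below every WT array, with 10.24, 10.63 and 10.44 in KO and 10.86, 10.93 and 10.76 in WT (-0.41, 0.361), beside -0.08 for Id3. Joined by their mean, the Id2 probe sets gave -0.22. Of 13 tested partners, such as E proteins, small Maf proteins and TLE corepressors, 6 were positive, with a median of -0.0042 and 0 past the threshold, and the smallest p belonged to Mafg (-0.22), Maff (0.25) and the beta-catenin cofactor Bcl9 (-0.19). Mafg differed by -0.082 and Maff by 0.011 with the mean of the probe sets. The partner Tle1 lay under the filter, with every KO array above every WT array.

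The transcription factors of effector cells lay on the other side. Of 15 tested, 13 had negative differences, with a median of -0.41, and 2 passed, both lower in KO. In 8 of the 15 every KO array lay below every WT array, against 11.3% of all tested genes. The list also holds Id2, given above, and Myb (-0.43), which is known from stem-like T cells as well. Ahr, the aryl hydrocarbon receptor, fell to 8.0, 8.10 and 8.24 in KO, against 9.03, 9.15 and 9.08 in WT (-0.97, SE 0.13, limma adjusted p = 0.0224). Nfil3, a leucine zipper repressor, fell to 7.59, 7.82 and 7.31 in KO, against 8.69, 8.99 and 8.63 in WT (-1.19, SE 0.17, limma adjusted p = 0.0282). When arrays were left out in turn, Ahr still passed only without KO replicate 1 (adjusted p 0.0389 there, up to 0.151 otherwise). Nfil3 still passed without KO replicate 1 or KO replicate 2, and had an adjusted p of up to 0.151 otherwise. Nfil3 did not pass with the mean of the probe sets (-0.67, 0.0631) or with centred probe sets (-0.59, 0.0910). Prdm1, the target that BACH2 is known to repress, was at 8.01, 8.76 and 7.68 in KO and 9.49, 9.37 and 8.36 in WT, with overlap (-0.92, limma adjusted p = 0.362, and -0.56 with the mean of the probe sets). No test of the difference between the lists was made.

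**Figure D5:**
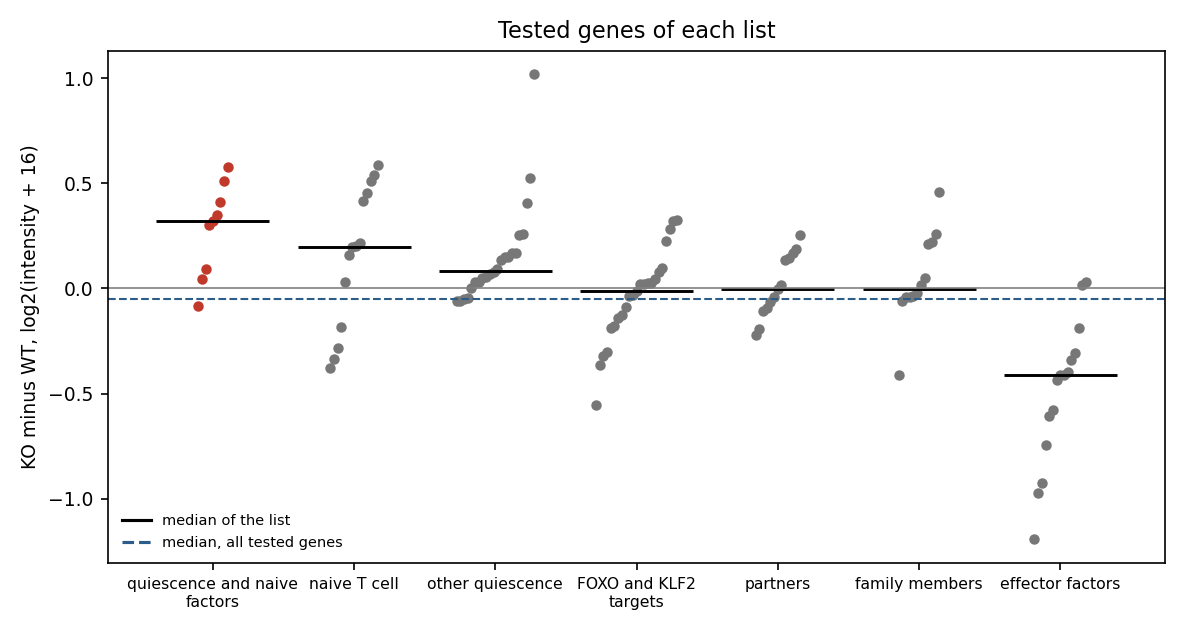
Difference KO minus WT, log2(intensity + 16), of the tested genes of each list, with the list's median (black) and the median of all 13891 tested genes (dashed). The median is 0.32 for the 9 factors, 0.20 for naive T cell genes, 0.08 for other quiescence genes, near 0 for FOXO and KLF2 targets, partners and family members, and -0.41 for effector factors.

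Several of the 9 are also expressed in B cells and in conventional naive T cells, so markers of other cells were read beside them. Of 8 B cell markers with a named probe set, 4 passed the filter and Ms4a1, Blk, Pax5 and Cr2 lay under it. The summed intensity of the 8 was 1301 to 1535 in KO and 1151 to 1585 in WT, with a median difference of -0.10 over the tested ones. Faim3, the older symbol of the IgM receptor gene Fcmr, was the 1 of the 4 tested B cell markers with a positive difference, 0.79 (limma adjusted p = 0.128, with 0.0196 to 0.497 over the alternatives). With the mean of the probe sets Faim3 differed by 0.50. Of the markers under the filter, Ms4a1, Pax5 and Cr2 also had higher means in KO, with overlap. Of 8 markers of conventional CD4 cells, 5 passed the filter and Il2, Il4 and Il17a lay under it. Of the 5, 2 had positive differences, the median was -0.07, and none passed the adjusted threshold. Il21 (-0.79, limma adjusted p = 0.221) and Sostdc1 (-1.19, 0.118) had every KO array below every WT array, against 11.3% of all tested genes. Both are known from follicular helper cells and were named after their values were seen. The 2 with positive differences were Bcl11b (0.15) and Cd40lg (0.01), with overlap. The sums of the 8 were 3771 to 4366 in KO and 3755 to 4217 in WT, and Bcl11b, part of that sum, is a gene of Tregs as well. The 9 markers of Tregs and T cells summed to 35594 to 39355 in KO and 40151 to 40586 in WT, lower on every KO array than on any WT array, with 1 positive difference and a median of -0.16. Resting Tregs and naive conventional cells share most of the 9 factors, and the part of either in the differences was not tested.

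Markers of macrophages and of NK cells had lower sums on every KO array than on any WT array. Macrophage markers, 6 of 10 past the filter, summed to 571 to 721 in KO and 744 to 1124 in WT, all 6 with negative differences. Of these, Vcam1 passed (-1.15, limma adjusted p = 0.0343), but its adjusted p was 0.0530 to 0.145 when arrays were left out in turn, so it passed in none of those 6 fits. Vcam1 differed by -0.66 with the mean of the probe sets. NK and cytotoxic markers, 7 of 8 past the filter, summed to 1766 to 2244 in KO and 2416 to 3068 in WT, with a median of -0.30. Of these 7, 2 had positive differences, 1 of them with every KO array above every WT array (6.10% of all tested genes). The other 5 had negative differences, 3 of them with every KO array below every WT array (11.3%). Plasma cell markers, 5 of 6, summed to 1716 to 2259 in KO and 2029 to 2856 in WT, with a median of -0.26. For dendritic cells (3 of 7 past the filter, median -0.02), neutrophils (3 of 6, -0.04) and erythroid cells (2 of 3 named, -0.25) the sums overlapped. Whether these lower markers have a part in the higher values of the 9 factors was not tested.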

How the data were processed

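Per the labels, total RNA of sorted Tregs was hybridised to Affymetrix Mouse Gene 2.0 ST arrays, and the deposited values are linear intensities per exon-level probe set, summarised with PLIER in Affymetrix Expression Console 1.4, per the submitters' processing notes. The sources used here do not give background correction, normalization between arrays or genome build. Groups and replicate numbers came from the titles.

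Intensities were taken as log2(intensity + 16) with no further normalization. Of 269751 probe sets, 233753 had 1 symbol in the platform annotation, 5106 several and 30892 none. No probe set with several symbols named one of the 9 genes. Probe sets of a gene were joined by their median, which can pass from 1 probe set to another between arrays. Genes with means under the 40th percentile (5.90) were left out, 9261 of 23152, leaving 13891. The test was limma's moderated one (version 3.58.1 under R 4.3.3, two-sided), with Benjamini-Hochberg adjustment over all tested genes or all probe sets and a threshold of 0.05. All p-values of genes and probe sets come from limma unless called exact. Tested on simulated arrays of 13891 genes, 65% of 100 genes changed by 1 log2 unit and 99% of 100 changed by 2 were recovered, with 4.09% false calls. Smaller changes, like most of those given here, were not simulated.

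The 9 genes, the lists and the tests were chosen with earlier results of these data known, so no pattern among them is independent support. Named were the 9 genes, Park7, Foxp3, Il2ra, from each list the genes past the threshold or else the 3 with the smallest p, per member the brightest probe set and those with the smallest p, and the genes most like and unlike the mean profile. Marker lists are given as counts and sums, with Faim3, Vcam1 and Prdm1 named. Il21, Sostdc1, Bcl11b and Cd40lg were named after their values were seen. Genes under the filter are named for some of the lists. Alternatives were pseudocounts of 1 and 64, other filters, means over probe sets, only bright probe sets, quantile normalization, median centring, other variance models, a replicate block and leaving out each array.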

Additional observations from a re-analysis of the deposited data

How the results depend on the processing

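Under each of the 19 alternatives, 0 of the 9 factors passed the threshold (lowest adjusted p 0.091, for Satb1 with array weights). The number with positive differences was 7 to 9 and the median difference of the members 0.22 to 0.37. Genes past an adjusted p of 0.05 numbered 38, against 60 with means over probe sets (10 higher, 50 lower), 25 with bright probe sets, 125 with array weights (20 higher, 105 lower), 69 with centred probe sets, and 0 with an unmoderated test, where 1335 had an unadjusted p under 0.05. With 1 array left out they numbered 4 to 37, with 11 when KO replicate 3 was dropped, 4 for WT replicate 1, 4 for WT replicate 2 and 7 for WT replicate 3. Same-numbered KO and WT arrays deviated together by r of 0.15, 0.17 and 0.01, against -0.19 to 0.09 for arrays of different number. Whether equal replicate numbers pair the arrays was not tested. The replicate block gave 67 genes and 0 probe sets (20023 at an unadjusted p under 0.05), with 0 of the 9 factors. Probe sets past an adjusted p of 0.05 numbered 3, against 79 with a pseudocount of 1, 8 with a pseudocount of 64, 15 with bright probe sets, 7 with quantile normalization, 10 with median centring and 0 to 2 with 1 array left out, none of them among the 117.

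Among the named genes that were followed under the alternatives, signs turned for 6, 5 of them with differences near 0. Slamf6, Myb, the genes under the filter and the marker genes other than Foxp3, Il2ra, Prdm1, Faim3 and Vcam1 were not followed. Id3 was 0.16 with means over probe sets and 0.045 with centred ones. With 1 array left out, Foxp1 ranged from -0.065 to 0.13, Ccr7 from -0.013 to 0.082, S1pr1 from -0.13 to 0.044 and Il2ra from -0.070 to 0.050. S1pr1 was 0.40 with means, 0.41 with centred probe sets, 0.00081 with median centring and 0.024 with array weights. Il2ra was 0.0040 with means, 0.0032 with quantile normalization, 0.034 with median centring and 0.030 with centred probe sets. Immt, at 0.28 with medians, was -0.012 with means and -0.0080 with centred probe sets. Of the 4 factors with an unadjusted limma p under 0.05, Bach2 and Satb1 kept it without KO replicate 1, and none did without WT replicate 1 or WT replicate 2. With all arrays, only Foxo3 and Bach2 had it with a pseudocount of 1 or with bright probe sets, and only Foxo1 with the unmoderated test. With means over probe sets Lef1, Klf2, Foxo3, Foxp1, Bach2 and Satb1 had it. The genes without overlap were Lef1, Foxo1, Foxo3, Foxp1 and Satb1 with means, and Foxo1, Bach2 and Satb1 with centred probe sets. The causes were not tested.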
